A study of Mus musculus with 20 samples.

Results

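The genes described here are 34 markers of vascular endothelium, the cell layer that lines blood and lymphatic vessels, among the 16669 genes measured in mouse ear skin. They were taken as a named list of endothelial and lymphatic genes. The rule uses no measured value, but the list was drawn up with earlier results of these data known. Ensembl identifiers were matched to symbols. Each gene was followed in every library as log2 CPM, the log2 of its reads scaled to an adjusted library size. All 34 were present in the table, and all 34 passed the filter on low values (log2 CPM of at least 0 in at least 5 libraries), which 16461 genes passed. Of the 34, 31 were treated as genes of blood vessels or of endothelium in general, and 3 (Lyve1, Prox1 and Mmrn1) as lymphatic. Such genes need not be restricted to endothelium.

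The libraries were bulk RNA-seq of total RNA from mouse ear pinnae, the external ear, after an injection into the skin of the right ear. There were 4 groups of 5 libraries. The controls received the saline buffer PBS, and the others received IL-4, IL-13 or IL-31 diluted in it, each as 10 µl at 0.1 µg/µl. IL-4 and IL-13, the type 2 cytokines, signal through a common receptor chain, and IL-31 is known for evoking itch. The labels used here state neither strain, sex and age, nor how long after the injection the ears were taken, nor if every library had an animal to itself. The p-values therefore reflect only the spread among these libraries, which may be technical. Whole pinna holds epidermis, dermis, cartilage, muscle and fat beside its vessels, and in such bulk RNA fewer endothelial cells and less RNA per endothelial cell cannot be told apart.

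Endothelial cells are held together by cadherin and tight junction proteins, carry a luminal coat of sialomucins, and sense flow and growth signals through receptors such as the angiopoietin receptor TIE2 and endoglin. Capillaries exchange fluid and lipid with the tissue, while venules display selectins and chemokine-binding proteins through which leukocytes leave the blood. Lymphatic endothelium drains fluid and immune cells from the dermis, and its identity depends on the transcription factor PROX1. Transcription factors of the ETS and SOXF families drive many endothelial genes.

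RefSeq promoter windows (GRCm38.p6, 250 bases before to 50 after the annotated start) were on hand for 17 of the 34 genes, as 23 windows. The ETS core AGGAAG (or CTTCCT on the other strand) was in 12 of the 23, or 52.2%, against 35.4% of all 32851 windows of that length. The SOX motif AACAAT (or ATTGTT) was in 4, or 17.4%, against 10.7%, and the GATA motif AGATAA (or TTATCT) was in 4, or 17.4%, against 11.2%. The SOX count includes the Mmrn1 window, which lies inside the gene's coordinates given below, away from their start. The 250 bases before the start are shown for Eng, Notch4 and Tek, receptors lower after both IL-4 and IL-13, and for Selp, lower after IL-4. All windows shown hold a motif. Clec14a, also lower after IL-4, had none of these motifs in its window and is not shown. Capitals mark the ETS motif in Eng, Notch4 and Selp and the SOX motif in Tek.
Eng: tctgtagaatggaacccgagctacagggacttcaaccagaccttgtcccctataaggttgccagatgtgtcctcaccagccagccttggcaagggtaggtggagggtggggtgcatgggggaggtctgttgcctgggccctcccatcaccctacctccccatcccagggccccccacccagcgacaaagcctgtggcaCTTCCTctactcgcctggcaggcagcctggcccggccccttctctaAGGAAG
Notch4: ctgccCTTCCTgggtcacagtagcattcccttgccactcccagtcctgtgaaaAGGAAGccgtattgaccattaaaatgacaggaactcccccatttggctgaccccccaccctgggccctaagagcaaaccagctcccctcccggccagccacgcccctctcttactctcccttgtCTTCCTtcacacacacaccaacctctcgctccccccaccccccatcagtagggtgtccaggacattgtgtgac
Tek: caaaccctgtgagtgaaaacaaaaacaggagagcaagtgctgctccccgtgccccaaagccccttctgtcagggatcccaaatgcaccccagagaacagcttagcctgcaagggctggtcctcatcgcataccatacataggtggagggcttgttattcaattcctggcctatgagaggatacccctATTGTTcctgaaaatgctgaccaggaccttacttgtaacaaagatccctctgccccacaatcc
Selp: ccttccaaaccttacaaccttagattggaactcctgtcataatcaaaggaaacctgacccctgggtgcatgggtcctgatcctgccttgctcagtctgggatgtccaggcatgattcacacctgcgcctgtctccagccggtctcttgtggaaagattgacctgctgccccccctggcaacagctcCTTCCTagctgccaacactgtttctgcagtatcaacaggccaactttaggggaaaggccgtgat
The windows lie on the plus strand at chr2:32646345-32646594 (Eng), chr17:34564045-34564294 (Notch4), chr4:94739039-94739288 (Tek) and chr1:164115014-164115263 (Selp). Eng holds the ETS letters with first bases 52 and 6 bases before the start. Notch4 holds them at 245, 197 and 73 bases before it, and Selp at 64. Tek has no ETS match in this window and a SOX match 63 bases before its start. These are matches of letters and not measured binding sites.

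Effective library sizes, read from the steps of the low values, ran from 6.12 M reads (M for mega; IL-4 library 5) to 23.73 M (IL-31 library 4), and 3 reads corresponded to 0.126 to 0.49 CPM. Group means were 11.3 ± 1.39 M for PBS, 10.7 ± 2.96 M for IL-4, 13.3 ± 0.378 M for IL-13 and 16.2 ± 4.29 M for IL-31 (SD, n = 5 each). The deposited values carry an offset of 0.1556 CPM, so log2 fold changes understate the change of low genes. Differences are cytokine minus PBS on this log2 scale with the standard error (SE), from limma fitted to all 20 libraries, and a gene was called at a Benjamini-Hochberg adjusted p under 0.05 over the 16461 genes tested. PBS libraries 1, 2 and 3 stood apart from the other 17 in epidermal barrier transcripts (summed 4390 to 7470 CPM, against 22400 to 61700 elsewhere), so counts are also given without them, which leaves 2 PBS libraries.

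Every one of the 34 genes read above the table's lowest value of -2.684 in each of the 20 libraries. Per kilobase of exon, the highest levels in PBS were those of Cldn5, the claudin of endothelial tight junctions (20.4 ± 2.46 CPM per kb, SD, n = 5), Plvap, which forms the diaphragms of capillary pores (15.5 ± 2.49), and the sialomucin Cd34 (13.7 ± 4.56). The lowest were the selectin Sele (0.575 ± 0.471) and Prox1 (0.586 ± 0.234). Among the lymphatic genes, Lyve1 stood at 7.80 ± 4.92 and Mmrn1 at 3.20 ± 1.40 CPM per kb. The spreads of Lyve1, Egfl7 (8.56 ± 2.30) and Ackr1 (7.86 ± 2.07) overlapped, so their order is not resolved.

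**Figure D1:**
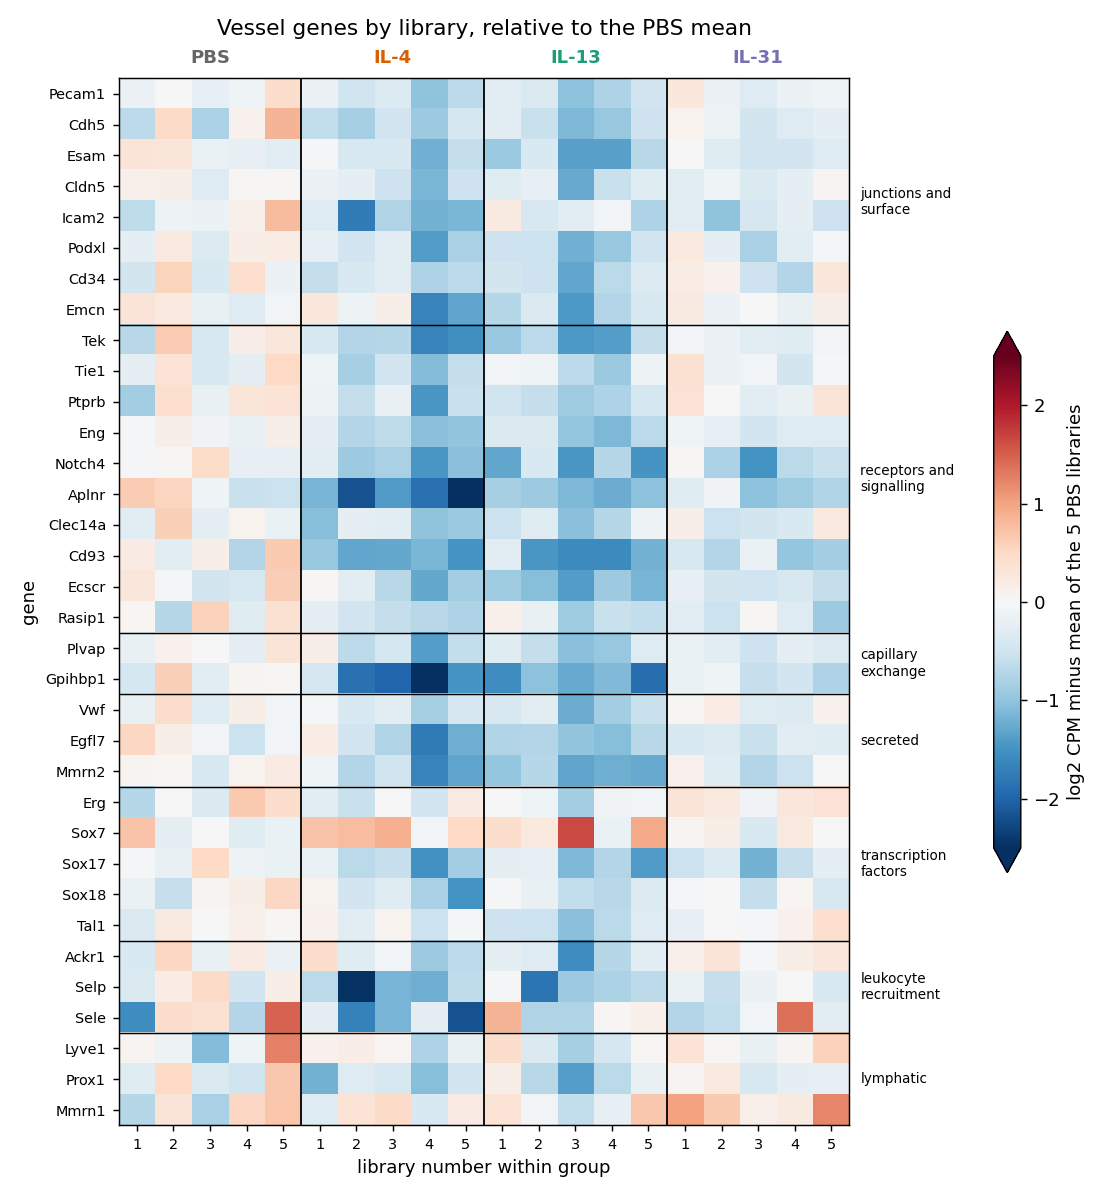
Log2 CPM of the 34 vessel genes (rows, by role) in the 20 libraries (columns, numbered within group), each minus the gene's mean over the 5 PBS libraries; values beyond the ends of the colour scale take its end colours. Blue, lower than PBS, fills most blood vessel rows under IL-4 and IL-13, darkest in IL-4 library 4 and IL-13 library 3, while the Sox7 row is mostly red there and the lymphatic rows are mixed.

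After IL-4, blood vessel genes were lower. Of the 31 blood genes, 12 fell and 0 rose, with a median difference of -0.62 log2 (all genes tested, -0.02), while 0 of 3 lymphatic genes passed (limma; 1, Prox1, lower at an unadjusted p under 0.05). Across all tested genes 9.63% were called lower and 8.22% higher. The largest falls were those of the apelin receptor Aplnr, to 0.26 times the PBS level, and of Gpihbp1, the capillary carrier of lipoprotein lipase, to 0.32 times. The difference was below 0 in 30 of the 31 blood genes, the exception being Sox7, and in 8565 of all 16461 genes tested. All 5 IL-4 libraries lay below all 5 PBS libraries in 5 blood genes (Eng, Notch4, Aplnr, Cd93 and Selp), against 5.89% of all genes. At an unadjusted p under 0.05 (limma), 25 blood genes were lower and 0 higher, against 16.3% and 15.2% of all genes.

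The number of members lower after IL-4 moved with single libraries: it was 19 without IL-4 library 1, and 7 without IL-4 library 4 or library 5. All genes called, lower and higher together, moved too. They numbered 2938 of 16461 in the main fit and 2915, 2037 and 1956 without IL-4 library 1, 4 and 5. Without PBS libraries 1, 2 and 3 the number of members lower was 6 (Cdh5, Icam2, Tek, Aplnr, Cd93 and Gpihbp1), with a median over the blood genes of -0.72. In that fit 1200 of all genes were called, lower and higher together. Quantile normalization gave 7 lower and 1 higher (Sox7), and over all genes it changed the split from 1585 lower and 1353 higher to 1199 and 1758.

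After IL-13, blood vessel genes were lower as well, against the same PBS libraries. Of the 31 blood genes 16 fell and 0 rose, with a median of -0.66 log2 (all genes, -0.03), and 0 of 3 lymphatic genes passed (limma; 0 at an unadjusted p under 0.05). The background was 9.8% of genes called lower and 9.94% higher. Largest were the falls of Gpihbp1, to 0.39 times PBS, and of the C-type lectin receptor Cd93, to 0.43 times. In 13 blood genes all 5 IL-13 libraries lay below all 5 PBS libraries, against 5.01% of all genes: Pecam1, Esam, Podxl, Emcn, Eng, Notch4, Aplnr, Ecscr, Plvap, Gpihbp1, Egfl7, Mmrn2 and Sox17. Emcn and Sox17 did not pass the adjusted threshold. At an unadjusted p under 0.05 (limma), 24 blood genes were lower and 1, Sox7, higher, against 16.9% and 16.8% of all genes.

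The count of 16 fell to 9 without PBS library 2 or IL-13 library 4 and to 8 without IL-13 library 3. All genes called, lower and higher together, numbered 3250 of 16461 in the main fit. They numbered 1995, 2421 and 2022 without PBS library 2, IL-13 library 4 and IL-13 library 3. Without IL-13 library 4, Sox7 passed as higher. Without PBS libraries 1, 2 and 3 the count of members lower was 3 (Cdh5, Tek and Ecscr) at a blood median of -0.70. In that fit 385 of all genes were called, lower and higher together. Quantile normalization gave 14 lower and 1 higher (Sox7), and changed the split over all genes from 1613 lower and 1637 higher to 1197 and 1906.

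After IL-31, 0 of the 34 genes passed (limma), where 1.2% of all genes were called lower and 5.18% higher. The blood median was -0.21 log2 and all genes stood at -0.04. The difference was below 0 in 25 of the 31 blood genes and in 9181 of all 16461 genes tested. At an unadjusted p under 0.05, Notch4 (-0.70), Cd93 (-0.62) and Sox17 (-0.57) were lower and Mmrn1 (0.65) was higher, where 10.2% of all genes were lower and 13.6% higher. Sox17 was the only member whose 5 IL-31 libraries all lay below the 5 PBS libraries, a pattern that 1.43% of genes showed. Without PBS library 4, Cd93 passed at -0.81 ± 0.24 (limma adjusted p = 0.0365), where 1885 of all genes were called, lower and higher together.

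**Figure D2:**
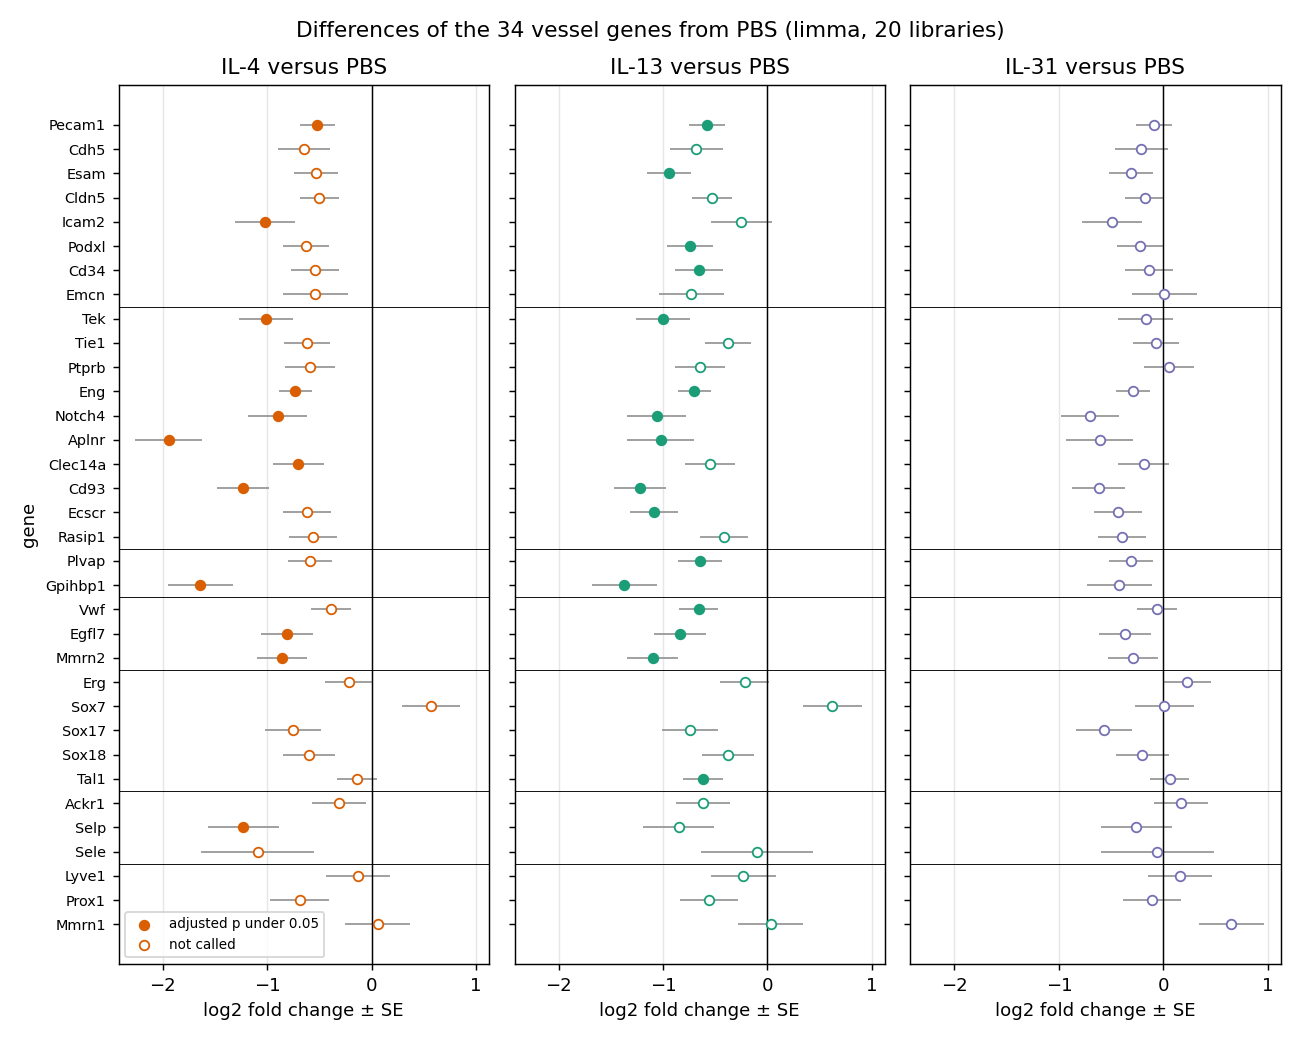
Log2 fold change from PBS with its SE (limma) for the 34 genes in each cytokine group; filled points have an adjusted p under 0.05. The points lie mostly left of 0 for IL-4 and IL-13, with 12 and 16 filled, and near 0 with 0 filled for IL-31.

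Junction and surface genes (8) were lower in part: 2 fell after IL-4 and 4 after IL-13, where 9.63% and 9.8% of all genes fell, with medians of -0.54 and -0.67. Pecam1 (chr11:106654217-106750628, minus strand), the junction adhesion molecule CD31, read 5.26, 5.43, 5.22, 5.31 and 5.86 log2 CPM in the PBS libraries and 5.27, 4.92, 5.08, 4.41 and 4.77 in the IL-4 libraries. It read 5.16, 5.06, 4.39, 4.64 and 4.93 after IL-13 and 5.67, 5.27, 5.10, 5.26 and 5.30 after IL-31. Every IL-13 library was below every PBS library, IL-4 library 1 reached into the PBS range, and the IL-31 libraries lay among the PBS ones. Pecam1 fell by 0.52 ± 0.17 after IL-4 (limma adjusted p = 0.0356) and by 0.58 ± 0.17 after IL-13 (limma adjusted p = 0.0208). The IL-4 call was lost without PBS library 2 or 5 or IL-4 library 2, 4 or 5 (limma adjusted p up to 0.108), and the IL-13 call without IL-13 library 3 or 4 (up to 0.0707).

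Cdh5 (chr8:104101625-104144511, plus strand), the endothelial cadherin of adherens junctions, read 3.25, 4.38, 3.10, 4.01 and 4.74 log2 CPM in PBS and 3.28, 3.07, 3.41, 2.99 and 3.45 after IL-4. The IL-13 libraries read 3.64, 3.34, 2.78, 2.95 and 3.37 and the IL-31 libraries 3.99, 3.76, 3.44, 3.57 and 3.68. The PBS values were split, with libraries 1 and 3 as low as the IL-4 and IL-13 libraries and libraries 2, 4 and 5 above all of them. The differences were -0.65 ± 0.25 (limma adjusted p = 0.0769) and -0.68 ± 0.25 (limma adjusted p = 0.0618). Without PBS libraries 1, 2 and 3 both passed, at -1.13 ± 0.23 and -1.16 ± 0.23 (limma adjusted p = 0.0147 and 0.0290).

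Esam (chr9:37528078-37538319, plus strand), an adhesion molecule of endothelial tight junctions that platelets also carry, read 3.81, 3.78, 3.32, 3.28 and 3.21 log2 CPM in PBS and 2.56, 3.09, 2.13, 2.13 and 2.78 after IL-13. Its IL-4 values were 3.43, 3.07, 3.10, 2.27 and 2.88 and its IL-31 values 3.49, 3.17, 3.00, 3.01 and 3.16. All IL-13 libraries were below all PBS libraries, and the IL-4 libraries overlapped them. Esam fell by 0.94 ± 0.21 after IL-13 (limma adjusted p = 0.00574), and its IL-4 difference was -0.53 (limma adjusted p = 0.0922). Of the other surface genes, Icam2, an integrin ligand, fell by 1.02 after IL-4 (limma adjusted p = 0.0210, and 0.0596 without IL-4 library 2) and stood at -0.25 after IL-13. The sialomucins Podxl and Cd34 fell after IL-13 by 0.74 and 0.66. Podxl lost its call without PBS library 2 or IL-13 library 3 or 4 (limma adjusted p up to 0.0756), and Cd34 without PBS library 2 or 4 or IL-13 library 1, 3 or 4 (up to 0.143). Cldn5 stood at -0.50 and -0.53 and the capillary and venous sialomucin Emcn at -0.54 and -0.73, without passing in either.

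Receptors and signalling genes (10) fell in 6 cases after each of IL-4 and IL-13, with all 10 differences below 0 in both. Of all 16461 genes tested, 9.63% and 9.8% fell, and 8565 and 8775 had a difference below 0. Aplnr (chr2:85136225-85139923, plus strand), the apelin receptor, read 3.11, 3.01, 2.37, 1.91 and 1.94 log2 CPM in PBS and 1.31, 0.29, 1.05, 0.60 and -0.63 after IL-4. It read 1.64, 1.56, 1.35, 1.22 and 1.45 after IL-13 and 2.16, 2.38, 1.45, 1.57 and 1.72 after IL-31. The IL-4 and IL-13 libraries were all below the PBS libraries, and the lowest value, in the shallowest library (IL-4 library 5), is worth about 3 reads. Aplnr fell by 1.94 ± 0.32 after IL-4 (limma adjusted p = 0.0013) and by 1.02 ± 0.32 after IL-13 (limma adjusted p = 0.0296). The IL-4 call held without any single library, and the IL-13 call was lost without PBS library 1 or 2 or IL-13 library 3, 4 or 5 (limma adjusted p up to 0.0880). Aplnr stood, without PBS libraries 1, 2 and 3 together, at -1.40 after IL-4 (limma adjusted p = 0.0420) and at -0.48 after IL-13 (limma adjusted p = 0.550).

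Cd93 (chr2:148436640-148443563, minus strand) is a C-type lectin receptor of endothelium that some myeloid cells also carry. Its PBS libraries read 4.91, 4.42, 4.85, 3.98 and 5.36 log2 CPM and its IL-4 libraries 3.76, 3.41, 3.42, 3.57 and 3.22. After IL-13 it read 4.42, 3.25, 3.11, 3.12 and 3.52 and after IL-31 4.30, 3.97, 4.53, 3.74 and 3.86. All IL-4 libraries lay below PBS, while IL-13 library 1 stayed within the PBS range and the other 4 were under it. Cd93 fell by 1.23 ± 0.25 after IL-4 (limma adjusted p = 0.00343) and by 1.22 ± 0.25 after IL-13 (limma adjusted p = 0.00326). Both calls held without any single library. The differences were -1.19 and -1.18 without PBS libraries 1, 2 and 3, and the IL-13 call was then lost (limma adjusted p = 0.0470 and 0.0678).

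Eng (chr2:32646595-32682669, plus strand), endoglin, is the co-receptor for ligands of the TGF-beta family. It read 4.65, 4.83, 4.60, 4.50 and 4.83 log2 CPM in PBS and 4.44, 3.94, 4.04, 3.63 and 3.69 after IL-4. The IL-13 libraries read 4.33, 4.32, 3.72, 3.55 and 4.00 and the IL-31 libraries 4.58, 4.47, 4.20, 4.35 and 4.35. Neither the IL-4 nor the IL-13 libraries overlapped PBS, and the IL-31 libraries did, through library 1. Eng had the smallest SE of the 34 genes: it fell by 0.73 ± 0.16 after IL-4 (limma adjusted p = 0.00473) and by 0.70 ± 0.16 after IL-13 (limma adjusted p = 0.00574), without depending on any single library. Both calls were lost without PBS libraries 1, 2 and 3, at -0.72 and -0.68 (limma adjusted p = 0.0595 and 0.0945).

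Tek (chr4:94739289-94874976, plus strand) encodes the angiopoietin receptor TIE2. Its values were 2.82, 4.14, 3.11, 3.68 and 3.78 log2 CPM in PBS and 3.12, 2.77, 2.80, 1.84 and 1.97 after IL-4. After IL-13 they were 2.55, 2.83, 2.08, 2.13 and 2.92 and after IL-31 3.43, 3.36, 3.24, 3.20 and 3.43. PBS library 1 overlapped both type 2 cytokine groups, and the IL-31 libraries were tightly grouped inside the PBS range. Tek fell by 1.01 ± 0.26 after IL-4 (limma adjusted p = 0.0127) and by 1.00 ± 0.26 after IL-13 (limma adjusted p = 0.0119), and kept both calls without any single library and without PBS libraries 1, 2 and 3. Its co-receptor Tie1 (-0.62 and -0.38) and Ptprb, the phosphatase that acts on TIE2 (-0.59 and -0.65), did not pass.

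Ecscr (chr18:35713086-35722356, minus strand), an endothelial surface protein, read 3.11, 2.80, 2.37, 2.44 and 3.46 log2 CPM in PBS and 1.95, 1.77, 1.43, 1.92 and 1.67 after IL-13. It read 2.87, 2.55, 2.14, 1.56 and 1.97 after IL-4 and 2.63, 2.38, 2.34, 2.43 and 2.25 after IL-31. The IL-13 libraries lay below all PBS libraries, and the others overlapped them. Ecscr fell by 1.09 ± 0.23 after IL-13 (limma adjusted p = 0.00382), and its IL-4 difference of -0.62 did not pass (limma adjusted p = 0.0701). The Notch receptor Notch4 fell by 0.90 after IL-4 and by 1.06 after IL-13 (limma adjusted p = 0.0291 and 0.0116). Its IL-4 call was lost without PBS library 2 or 3 or IL-4 library 2, 4 or 5 (limma adjusted p up to 0.0831). Clec14a, a C-type lectin that binds multimerin 2, fell by 0.70 after IL-4, a call lost without PBS library 2 or 4 or IL-4 library 1, 4 or 5 (limma adjusted p up to 0.130). Rasip1, needed for vessel lumens, stood at -0.56 and -0.42 and did not pass.

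Of the 2 capillary exchange genes, 1 fell after IL-4 and 2 after IL-13, where 9.63% and 9.8% of all genes fell. Gpihbp1 (chr15:75596628-75599481, plus strand) carries lipoprotein lipase to the capillary lumen and read 1.59, 2.62, 1.76, 2.10 and 2.06 log2 CPM in PBS and 1.61, 0.17, 0.05, -0.46 and 0.55 after IL-4. It read 0.45, 1.01, 0.76, 0.92 and 0.15 after IL-13 and 1.86, 1.91, 1.45, 1.55 and 1.25 after IL-31. IL-4 library 1 stood at the low end of PBS and the other 4 IL-4 libraries and all 5 IL-13 libraries were below it. Gpihbp1 fell by 1.64 ± 0.31 after IL-4 (limma adjusted p = 0.00222) and by 1.37 ± 0.31 after IL-13 (limma adjusted p = 0.00553), without depending on any single library. The IL-13 call was lost without PBS libraries 1, 2 and 3 (limma adjusted p = 0.0641). Plvap fell by 0.65 ± 0.21 after IL-13, a call lost without PBS library 2, 3 or 5 or IL-13 library 3 or 4 (limma adjusted p up to 0.0982), and stood at -0.59 after IL-4 (limma adjusted p = 0.0530).

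Of the 3 secreted proteins, 2 fell after IL-4 and 3 after IL-13, where 9.63% and 9.8% of all genes fell. Mmrn2 (chr14:34375465-34404287, plus strand), multimerin 2, is the matrix ligand of CD93 and CLEC14A and read 3.29, 3.27, 2.84, 3.32 and 3.43 log2 CPM in PBS and 2.26, 2.52, 1.92, 2.00 and 1.97 after IL-13. The IL-4 libraries read 3.13, 2.50, 2.73, 1.56 and 1.91 and the IL-31 libraries 3.34, 2.93, 2.50, 2.70 and 3.24. IL-13 libraries were all below PBS, and IL-4 library 1 overlapped it. Mmrn2 fell by 1.10 ± 0.24 after IL-13 (limma adjusted p = 0.00512) and by 0.86 ± 0.24 after IL-4 (limma adjusted p = 0.0198, lost without IL-4 library 4 or 5, up to 0.0612). Egfl7, an endothelial matrix factor, fell by 0.81 and 0.84. Its IL-4 call was lost without PBS library 1 or 2 or IL-4 library 3, 4 or 5 (limma adjusted p up to 0.0902), and its IL-13 call without PBS library 1 or 2 or IL-13 library 3 or 4 (up to 0.0650). Vwf, von Willebrand factor, fell by 0.66 after IL-13, a call lost without PBS library 2 or IL-13 library 3 (limma adjusted p up to 0.0587), and stood at -0.39 after IL-4.

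The 5 transcription factors showed few calls. After IL-4, 0 of 5 passed (limma; 2 lower at an unadjusted p under 0.05, Sox17 and Sox18), and after IL-13 1 did, Tal1. The background was 9.63% and 9.8% of all genes called lower, and 16.3% lower after IL-4 at an unadjusted p under 0.05 (limma). The medians were -0.22 and -0.38. Tal1, a blood and endothelial lineage factor, fell by 0.62 after IL-13, a call lost without PBS library 2 or IL-13 library 3 or 4 (limma adjusted p up to 0.0870), and stood at -0.14 after IL-4. The ETS factor Erg stood at -0.22 in both, and at -0.77 in both without PBS libraries 1, 2 and 3 (limma adjusted p = 0.0546 and 0.0732). Within the SOXF family, Sox17 (-0.75 and -0.74) and Sox18 (-0.60 and -0.38) lay below PBS and Sox7 above it, at 0.57 ± 0.28 and 0.62 ± 0.28. The Sox7 difference did not pass in either as deposited (limma adjusted p = 0.168 and 0.119) and passed in both after quantile normalization (0.80 and 0.83, limma adjusted p = 0.0484 and 0.0394).

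Of the 3 genes through which venules recruit leukocytes, 1 fell after IL-4 and 0 passed after IL-13 (limma; 2 lower at an unadjusted p under 0.05, Ackr1 and Selp). The background was 9.63% and 9.8% of all genes called lower, and 16.9% lower after IL-13 at an unadjusted p under 0.05 (limma). Selp (chr1:164115264-164150026, plus strand), P-selectin, read 1.23, 1.79, 2.08, 1.12 and 1.77 log2 CPM in PBS and 0.93, -0.88, 0.44, 0.38 and 0.97 after IL-4. It read 1.55, -0.23, 0.69, 0.81 and 0.94 after IL-13 and 1.43, 1.02, 1.45, 1.59 and 1.21 after IL-31. The IL-4 libraries lay below all PBS libraries, with library 2 far under the other 4. Selp fell by 1.23 ± 0.34 after IL-4 (limma adjusted p = 0.0170), and its IL-13 difference was -0.85 ± 0.34 (limma adjusted p = 0.0839). The chemokine-binding receptor Ackr1 stood at -0.31 and -0.62. E-selectin, Sele, had the widest spread of the 34 genes, from -1.04 to 2.00 within PBS, and stood at -1.09 ± 0.54 after IL-4, -0.10 after IL-13 and -0.06 after IL-31.

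**Figure D3:**
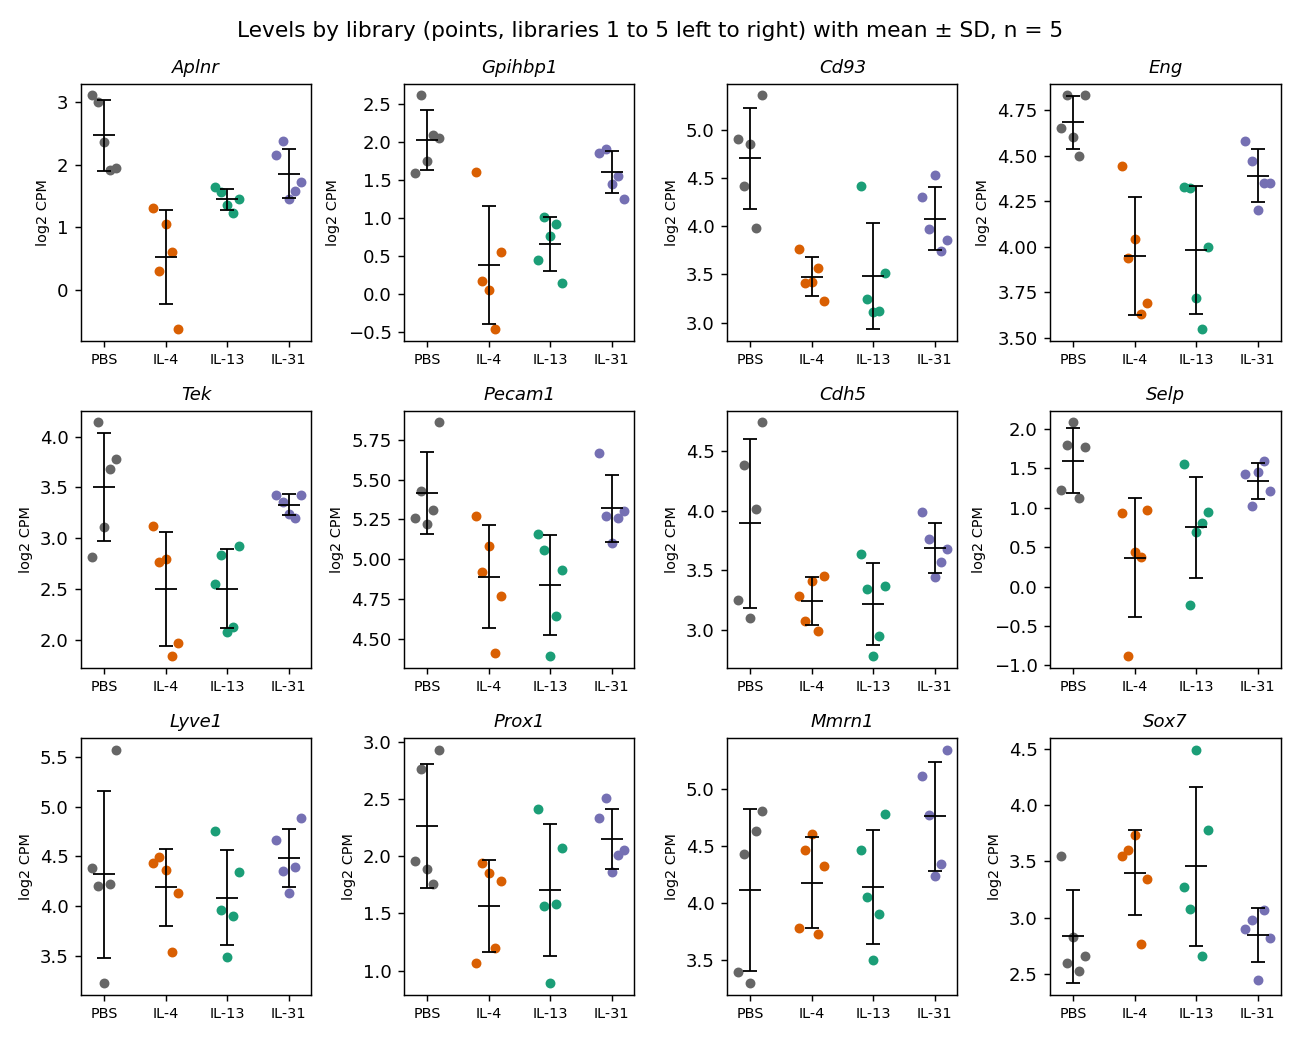
Log2 CPM of 12 vessel genes in each library (points, libraries 1 to 5 from left to right within a group) with mean and SD (n = 5). Aplnr, Cd93 and Eng separate IL-4 from PBS without overlap, Cdh5 shows PBS libraries 1 and 3 at the level of the IL-4 and IL-13 groups, and Mmrn1 shows the IL-31 libraries from 4.24 to 5.34.

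The lymphatic genes did not pass in any comparison with PBS. Lyve1 (chr7:110850607-110863239, minus strand) is a hyaluronan receptor of lymphatic endothelium that some macrophages also carry. It read 4.38, 4.20, 3.23, 4.22 and 5.57 log2 CPM in PBS and 4.43, 4.49, 4.36, 3.54 and 4.13 after IL-4. It read 4.75, 3.96, 3.49, 3.90 and 4.34 after IL-13 and 4.66, 4.35, 4.13, 4.39 and 4.89 after IL-31. The PBS libraries spanned all 3 cytokine groups, since library 3 was the lowest and library 5 the highest of all 20. Differences were -0.13 ± 0.31, -0.23 ± 0.31 and 0.16 ± 0.31 (limma adjusted p = 0.812, 0.635 and 0.768).

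Prox1 (chr1:190118035-190170714, minus strand), the transcription factor of lymphatic identity, read 1.96, 2.76, 1.89, 1.76 and 2.93 log2 CPM in PBS and 1.07, 1.94, 1.85, 1.20 and 1.78 after IL-4. After IL-13 it read 2.41, 1.56, 0.89, 1.58 and 2.07 and after IL-31 2.33, 2.51, 1.86, 2.01 and 2.05. All groups overlapped, with PBS libraries 2 and 5 above the rest. The differences of -0.69 ± 0.28 after IL-4 (limma adjusted p = 0.0985) and -0.56 ± 0.28 after IL-13 (limma adjusted p = 0.174) did not pass. Of the blood genes called, 1 of 12 (Pecam1) had a smaller difference than Prox1 after IL-4 and 0 of 16 after IL-13.

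Mmrn1 (chr6:60924976-60989378, plus strand), multimerin 1, is made by lymphatic endothelium and by platelets. It read 3.40, 4.43, 3.30, 4.63 and 4.80 log2 CPM in PBS and 3.78, 4.46, 4.60, 3.73 and 4.32 after IL-4. The IL-13 libraries read 4.46, 4.05, 3.50, 3.90 and 4.78 and the IL-31 libraries 5.11, 4.77, 4.24, 4.34 and 5.34. PBS libraries 1 and 3 were lowest of all 20, and the IL-31 libraries reached highest. Differences were 0.06 ± 0.31 and 0.03 ± 0.31 after IL-4 and IL-13, and 0.65 ± 0.31 after IL-31 (limma adjusted p = 0.207). Without PBS libraries 1, 2 and 3 the first 2 changed sign, to -0.54 and -0.57.

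Set side by side, the mean over the 31 blood genes, each centred on its PBS mean, ran from -0.176 to 0.206 log2 in the PBS libraries, from -1.16 to -0.210 after IL-4, from -1.02 to -0.406 after IL-13 and from -0.427 to -0.055 after IL-31. The IL-4 and IL-13 libraries all lay below the PBS libraries, and 4 of the 5 IL-31 libraries did. The 3 lymphatic genes averaged -0.756 to 0.867 in PBS, -0.742 to 0.065 after IL-4, -0.938 to 0.308 after IL-13 and -0.153 to 0.527 after IL-31, so every group overlapped PBS. The lymphatic mean minus the blood mean was 0.00 ± 0.470 in PBS, 0.453 ± 0.429 after IL-4, 0.413 ± 0.312 after IL-13 and 0.465 ± 0.192 after IL-31 (SD, n = 5 each), differences within about 1 SD of the PBS libraries. Without PBS libraries 1, 2 and 3 the lymphatic medians (-0.70 after IL-4 and -0.65 after IL-13) were close to the blood medians (-0.72 and -0.70). A blood set that was lower and a lymphatic set that did not pass are not shown to differ, since no test was run between them.

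Single libraries stood low or high across many blood genes. IL-4 library 4 had the lowest value of its group in 22 of the 31 blood genes and IL-4 library 1 the highest in 24. IL-13 library 3 was lowest in 19 and IL-13 library 1 highest in 15, and IL-31 library 3 was lowest in 17. Transcripts of 15 neutrophil genes varied between the same libraries. They summed to 656 CPM in IL-4 library 4 (58.8 to 93.0 in the other IL-4 libraries), 461 in IL-13 library 3 and 979 in IL-31 library 3, the highest of its group. IL-13 library 1, highest of its group in 15 blood genes, held 1200 CPM, and the PBS libraries spanned 61.8 to 2420. Against PBS, 0 of the 15 neutrophil genes passed after any cytokine (limma), at medians of -2.62, -2.03 and -1.50 after IL-4, IL-13 and IL-31. At an unadjusted p under 0.05 (limma), 1, 0 and 0 were lower. In each comparison 1, Il1f9, was higher (0.87, 1.00 and 0.87). The part of neutrophil content in the vessel results was not tested. The summed level of the blood genes was 462 to 624 CPM in PBS, 248 to 454 after IL-4, 254 to 399 after IL-13 and 395 to 537 after IL-31.

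**Figure D4:**
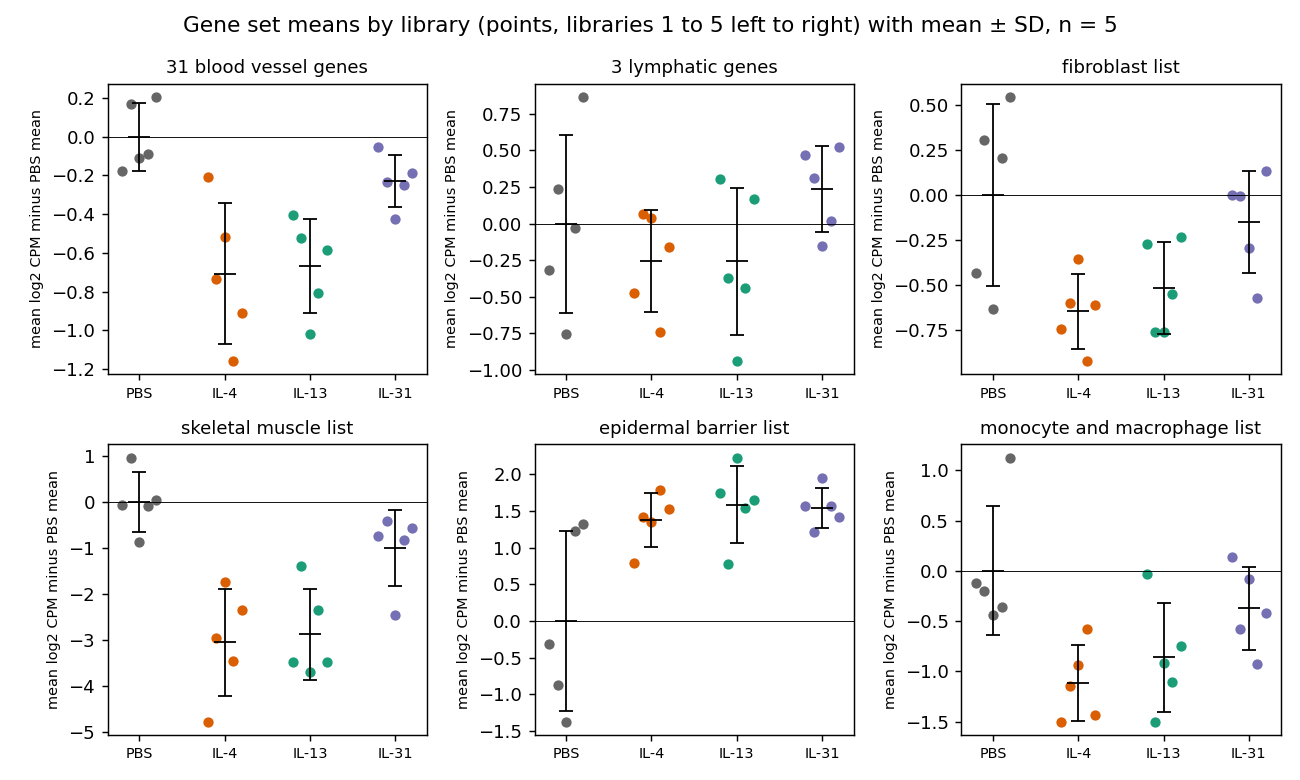
Mean log2 CPM of gene sets in each library minus the mean of the PBS libraries (points, libraries 1 to 5 from left to right within a group), with group mean and SD (n = 5). The 31 blood vessel genes and the skeletal muscle list are below PBS in all IL-4 and IL-13 libraries, the 3 lymphatic genes overlap PBS in every group, and PBS libraries 1, 2 and 3 are lowest in the epidermal barrier list.

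A further 49 endothelial genes outside the 34 moved the same way in part. After IL-4, 16 fell and 2 rose (9.63% and 8.22% of all genes), with a median of -0.49, after IL-13 23 fell and 1 rose (9.8% and 9.94%), with a median of -0.55, and after IL-31 0 fell and 1 rose, with a median of -0.20. The genes that rose, named after their values were seen, were Nrarp in all 3 and Unc5b after IL-4. Nos3, the endothelial nitric oxide synthase, fell by 0.96 and 0.88 (limma adjusted p = 0.00531 and 0.00768), and its trafficking partner Nostrin fell by 1.42 after IL-13 (limma adjusted p = 0.0034). After IL-4 the leukocyte ligand Icam1 fell by 0.90, the scavenger receptor Stab1 by 0.86 and the protein C receptor Procr by 1.11. Nrarp, a Notch target that is not restricted to endothelium, rose by 0.91 after IL-13 and by 0.74 after IL-31 (limma adjusted p = 0.00619 and 0.0407).

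Of 15 further genes with lymphatic expression, 2 fell after IL-4 and 2 after IL-13, near the 9.63% and 9.8% of all genes that fell. Their medians were -0.16 and -0.11, and 0 passed after IL-31 (limma; 1 lower and 0 higher at an unadjusted p under 0.05). The chemokine Ccl21a, through which lymphatics attract dendritic cells, fell by 0.70 and 0.67 (limma adjusted p = 0.0270 and 0.0310). Podoplanin, Pdpn, which fibroblasts and keratinocytes also make, fell by 1.18 after IL-4, and the co-receptor Nrp2 fell by 0.43 after IL-13. Of 15 pericyte and vascular smooth muscle genes, 3 fell after IL-4 (9.63% of all genes) and 5 fell and 1 rose after IL-13 (9.8% and 9.94% of all genes), with medians of -0.39 and -0.38, and 0 passed after IL-31 (limma; 1 lower and 1 higher at an unadjusted p under 0.05) at a median of -0.44. Abcc9 and Kcnj8, which form the potassium channel of pericytes, fell by 1.58 and 1.06 after IL-4 and by 1.76 and 1.17 after IL-13. Skeletal muscle also makes Abcc9. Rgs5, a pericyte marker, fell by 0.54 and 0.67, and Heyl, a Notch target of mural cells, fell by 1.53 after IL-13. Mcam also fell and the mural Notch receptor Notch3 rose after IL-13, both named after their values were seen.

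Compared directly, the cytokine groups gave no calls. Over all genes 0 were called (limma) between IL-4 and IL-31, IL-13 and IL-31, or IL-4 and IL-13, so that 0% is the background of each. At an unadjusted p under 0.05, 11 members were lower and 0 higher after IL-4 than after IL-31 (6.71% and 3.88% of all genes) and 15 were lower and 1 higher after IL-13 than after IL-31 (5.69% and 1.6%), with member medians of -0.44 and -0.47. Aplnr (-1.33 ± 0.32) and Gpihbp1 (-1.22 ± 0.31) had the smallest p of the members in IL-4 against IL-31, at a limma adjusted p of 0.174 for both. Without IL-31 library 3, Aplnr passed there (-1.43 ± 0.34, limma adjusted p = 0.0340), where 304 of all genes were called. Tek was lower in every IL-4 and every IL-13 library than in every IL-31 library, 1 of 3 such members for IL-4 (1.76% of all genes) and of 8 for IL-13 (0.668%). Between IL-4 and IL-13 the member median was 0.03, 0 members had IL-4 libraries all below the IL-13 libraries (0.45% of all genes), and Aplnr, Icam2 and Tal1 were the 3 members with an unadjusted p under 0.05, at -0.92, -0.77 and 0.48 and a limma adjusted p of 0.997 each (2.29% of all genes were lower and 1.74% higher).

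Markers of other tissues moved with these groups. Of all genes tested, 9.63% fell and 8.22% rose after IL-4, 9.8% and 9.94% after IL-13, and 1.2% and 5.18% after IL-31. All 22 skeletal muscle genes fell after IL-4 and after IL-13 (medians -2.82 and -2.66), and their summed level was 9770 to 28400 CPM in PBS, 691 to 5260 after IL-4, 1560 to 5800 after IL-13 and 3000 to 13100 after IL-31. Of 24 epidermal barrier genes, 16 rose after IL-4, 20 after IL-13 and 18 after IL-31. Their sums were 4390 to 32400 CPM in PBS, 22400 to 40000 after IL-4, 23400 to 61700 after IL-13 and 33000 to 51400 after IL-31. Of 12 fibroblast genes 3 fell after each of IL-4 and IL-13, with sums of 4960 to 12700 CPM in PBS, 4070 to 6370 after IL-4, 4030 to 6520 after IL-13 and 4260 to 7450 after IL-31. Of 18 monocyte and macrophage genes 10 and 8 fell, with sums of 756 to 1710 CPM in PBS, 371 to 571 after IL-4, 369 to 847 after IL-13 and 534 to 896 after IL-31. Cells of that kind can carry Cd93 and Lyve1. The part of each of these markers in the vessel results was not tested. Of 5 platelet genes 1 (Nrgn) fell after IL-4, and 0 of 5 red blood cell genes passed in any comparison with PBS (limma, and 0 at an unadjusted p under 0.05), at medians of -1.04, -0.92 and -0.22. Platelet sums were 52.7 to 102 CPM in PBS and 42.4 to 58.1 after IL-4. Of 12 adipocyte genes 4 (Cfd, Plin4, Fabp4 and Pnpla2) fell after IL-13. Every measured gene of these lists read above the lowest value of the table in at least 1 library.

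With the muscle score of each library as a covariate, 0 of the 34 genes passed after IL-4 or IL-13 (limma; 3 and 0 of all genes did). At an unadjusted p under 0.05, 9 and 10 were lower and 0 higher, while the blood medians were -0.48 and -0.56 and the SE of Aplnr after IL-4 widened from 0.32 to 0.53. The muscle sums of the IL-4 and IL-13 libraries do not overlap those of PBS, so the groups and the muscle content cannot be told apart. With the fibroblast score as a covariate 4 genes were lower after IL-4 (Eng, Gpihbp1, Cd93 and Aplnr) and 8 after IL-13. Mmrn1 was then higher in all 3 cytokine groups (1.01 ± 0.17, 0.78 ± 0.16 and 0.86 ± 0.14). Of all 16461 genes, 2671, 3764 and 1943 were called in that fit after IL-4, IL-13 and IL-31, lower and higher together. With the barrier score 4 were lower after IL-4 (Icam2, Gpihbp1, Cd93 and Aplnr) and 0 after IL-13 (limma; 9 at an unadjusted p under 0.05), at blood medians of -0.55 and -0.50. In that fit 1555 and 4 of all genes were called, lower and higher together. These covariates were chosen after the data were seen. Counts at an unadjusted p under 0.05 (limma) with them are given without the share of all genes, so they cannot be weighed against it.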

How the data were processed

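Bulk RNA-seq of ear pinnae was deposited by the authors as a table of log2 CPM values for 16669 genes named by Ensembl identifiers, in 20 libraries, 5 per group. The build GRCm38 and edgeR, without a version, are named per the submitters' processing notes; aligner and read counter: not given in the sources used here. All columns were mapped to libraries by name (0 unmapped), and groups came from the labels. GENCODE M21 for GRCm38 matched 16652 identifiers and gave coordinates and exon lengths. An offset of 0.1556 CPM sets the lowest value, -2.684. Back on the linear scale the libraries summed to 921691 to 1113112 CPM, so the scaling was not to the plain total of each library. Low values were whole multiples of 1 read, within 0.02 reads, for only 79.7 to 85.0% of values per library, so a count test was not used; the step gave library sizes of 6.12 to 23.73 M.

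Genes with log2 CPM of at least 0 in at least 5 libraries were kept (16461; 208 removed). The groups were fitted together in limma (lmFit, contrasts.fit, eBayes with trend), and 6 comparisons were made, two-sided, with Benjamini-Hochberg adjustment over all tested genes at 0.05. The procedure was tested on simulated data. Members and lists were chosen with earlier results of these data known. Full values are given for Pecam1, Cdh5, the 3 lymphatic genes and the 6 called members of smallest p in each comparison with PBS. From other lists at most 4 genes of smallest p are named. Alternatives were no filter, a stricter filter (log2 CPM of at least 1 in at least 10 libraries), a pseudocount of 1 CPM, quantile normalization, only the libraries compared, robust eBayes, a replicate block and leaving out each library. Tables were handled in python 3.11.15 with pandas 2.3.3 and numpy 2.4.6, drawn with matplotlib 3.10.9, and fitted with limma 3.58.1 in R 4.3.3.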

Additional observations from a re-analysis of the deposited data

Results flagged for a closer look

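A library was marked where its gap to the nearest of the others of its group, over the whole range of the 5, was above Dixon's 95% critical value of 0.71. Chance marks about 1 in 20 groups, and 5 of 136 were marked. Cldn5 in PBS library 3 read 4.53 log2 CPM against 4.87 to 4.99 in the other PBS libraries. Mmrn2 in PBS library 3 read 2.84 against 3.27 to 3.43. Sox17 in PBS library 3 read 2.92 against 2.24 to 2.38, so in that library it stood above the rest. Erg read 2.68 in IL-13 library 3 against 3.43 to 3.55, and 3.45 in IL-31 library 3 against 3.79 to 3.89. All 5 marked values came from the libraries numbered 3 of their groups, and the labels do not say whether the number pairs samples.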

How the results depend on the processing

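Without a filter or with a pseudocount of 1 CPM, each of the 34 genes kept its direction and call against PBS. The stricter filter left 32 of them (without Icam2 and Sele) and added Podxl and Plvap after IL-4; robust eBayes lost Cd34 after IL-13. Members lower after IL-4 numbered 7 with quantile normalization, 5 with only the 10 libraries compared and, in alternatives chosen after seeing the data, 6 without PBS libraries 1, 2 and 3, and 0, 4 and 4 with the muscle, fibroblast and barrier score as a covariate. After IL-13 they numbered 3 without those libraries and 0, 8 and 0 with the 3 scores. Members higher were 1 with quantile normalization (Sox7; IL-4 and IL-13) and 1 with the fibroblast score (Mmrn1; all 3 cytokines). In the order IL-4, IL-13, IL-31, all genes called were 1269, 1134 and 0 with only the 10 libraries compared. They were 1200, 385 and 0 without PBS libraries 1, 2 and 3. With the muscle score they were 3, 0 and 0, with the fibroblast score 2671, 3764 and 1943, and with the barrier score 1555, 4 and 0. IL-4 against IL-31 gave 3 genes with only its 10 libraries. The cause was not tested.

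Leaving out each library in turn, members lower ranged from 7 to 19 (IL-4), 8 to 18 (IL-13), 0 to 1 (IL-31) and 0 to 1 (IL-4 against IL-31), and members higher from 0 to 1 (IL-13). All genes called ranged from 1885 to 3553 (IL-4), 1995 to 4703 (IL-13), 0 to 3029 (IL-31), 0 to 304 (IL-4 against IL-31) and 0 to 297 (IL-13 against IL-31). The low counts were 1885 without PBS library 2 and 1956 without IL-4 library 5 for IL-4, and 1995 without PBS library 2 and 2022 without IL-13 library 3 for IL-13. For IL-31 they were 0 without PBS library 2 or IL-31 library 3 or 5, 1 without PBS library 3, 26 without PBS library 1, 405 and 498 without IL-31 library 4 and 1, and the high ones 1885 and 3029 without PBS library 4 and 5. The 304 and 297 came without IL-31 library 3.

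Differences that changed sign when a library was left out, with their ranges, were small ones. After IL-4 they were Lyve1 (-0.40 to 0.18) and Mmrn1 (-0.14 to 0.24), and after IL-13 Lyve1 (-0.504 to 0.079), Mmrn1 (-0.18 to 0.20) and Sele (-0.49 to 0.27). After IL-31 they were Cd34 (-0.254 to 0.011), Cdh5 (-0.41 to 0.005), Emcn (-0.070 to 0.089), Lyve1 (-0.11 to 0.47), Pecam1 (-0.181 to 0.016), Prox1 (-0.23 to 0.06), Ptprb (-0.17 to 0.15), Sele (-0.45 to 0.31), Sox7 (-0.067 to 0.188), Tal1 (-0.03 to 0.13), Tie1 (-0.181 to 0.054) and Vwf (-0.145 to 0.044). Without PBS libraries 1, 2 and 3 the sign changed for Mmrn1 after IL-4 (-0.54) and IL-13 (-0.57) and for Erg (-0.32), Lyve1 (-0.41), Ptprb (-0.26) and Tal1 (-0.012) after IL-31. With quantile normalization it changed for Tal1 after IL-4 (0.12), Icam2 (0.027) and Sele (0.14) after IL-13, and Prox1 (0.092) and Sele (0.10) after IL-31.

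The labels number the libraries 1 to 5 in each group and do not say whether the number pairs them. Correlations between the deviations of same-numbered libraries ran from -0.236 to 0.486, and 3 of 20 libraries were closest to their own number. The libraries numbered 2 correlated above 0 in every pair (0.0293 to 0.486). This check cannot exclude a pairing or a shared batch, and the main fit used neither. With a replicate block, members lower were 16 after IL-4, 17 after IL-13 and 0 after IL-31. All genes called were then 2952, 3252 and 1247, and 2 genes of all were called between IL-4 and IL-31. Depth limits the lowest members, Sele, Icam2, Selp and Aplnr, whose lowest values stand near a few reads.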
